A study of Mus musculus with 19 samples.

Results

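The comparison described here is that of α9k1-naive with GFP-naive sensory neurons, which asks what α9 integrin together with kindlin-1 changed in dorsal root ganglion (DRG) neurons whose axons had not been injured. It was chosen by group label and takes 11 of the 19 RNA-seq libraries of the series, 6 α9k1-naive and 5 GFP-naive, over all 12629 genes of the deposited table. According to the study's methods, the left C5 to C8 DRGs of the α9k1 groups received AAV5 vectors for α9 integrin with a V5 tag (CAG promoter) and for kindlin-1 fused to GFP (CMV promoter), and the GFP groups received an AAV5 vector for membrane-targeted GFP (CMV promoter). The ganglia were dissociated 8 weeks later and GFP-positive cells were sorted by FACS, so that cells of the α9k1 groups were taken by kindlin-1-GFP and need not all carry α9 integrin. The study's methods name adult male Lewis rats, aged 2 months, and dissociation with collagenase and trypsin, whereas the sample labels name C57BL/6 mice and papain. The labels give the GFP libraries as wild-type and the α9k1 libraries as overexpressing. Naive here means without dorsal root crush, and the other 8 libraries, 4 α9k1-crush and 4 GFP-crush, had that lesion. Whether each library came from 1 animal or from several is not stated in the sources used here. The p-values weigh a difference against the spread between libraries, which the fit estimated from all 19.

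Integrins are receptors of paired α and β subunits that bind extracellular matrix and signal through adaptors at focal adhesions. α9 pairs with β1 and binds tenascin-C, osteopontin and other ligands, and kindlins are adaptors that bind integrin β tails and switch the receptor to its active form. Adult DRG neurons have little of either gene. After peripheral nerve injury these neurons are known to switch on a set of transcription factors (Atf3, Jun, Stat3, Sox11 and others) and growth-associated genes, which they do far less after injury of their central branch.

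Libraries had 52.2 to 68.4 M read pairs in α9k1-naive and 36.4 to 87.6 M in GFP-naive, and 49.5% to 54.1% and 50.8% to 53.2% of reads were aligned to the mouse genome, with 3.96% to 4.05% of aligned bases differing from it in α9k1-naive and 3.89% to 3.99% in GFP-naive. The study's methods name rats. For rat reads, the value of a gene and its absence would also depend on how well it matches the mouse genome, which was not tested. Other metrics also differed between the groups, with a median of 94.8% of bases in mRNA in α9k1-naive and 93.5% in GFP-naive, 1.63% and 2.07% in introns and 3.58% and 4.29% between genes, each with overlapping ranges, and their part in the results was not tested beyond the fits with and without them as covariates. Values are log2 counts that the authors normalized for gene length and depth, so that the counting error of a single value is unknown, and the spread between libraries includes it. The profiles of α9k1-naive libraries correlated across genes at r = 0.949 to 0.968 with each other and at 0.889 to 0.924 with those of GFP-naive (genes are not independent replicates). Median levels of the 20 pan-neuronal markers stood at percentile 97.2 of all genes in GFP-naive and at 95.4 in α9k1-naive. The gene with the highest level in the table was nevertheless Apoe, a lipid carrier that satellite glia make in quantity, at 16.46 ± 0.20 against 15.63 ± 0.15 (SD, n = 6 and 5). GFP-naive was split in the sequencing metrics used as covariates, its replicates 1 and 5 being at -8.25 and -6.46 on their first component and the other 3 at 1.93 to 6.61. Among α9k1-naive libraries, replicates 4 and 6 stood apart in these metrics by less. The second component nearly separated the groups. On it α9k1-naive replicates 1 to 5 were at 2.44 or above and all GFP-naive libraries at 1.41 or below. Only α9k1-naive replicate 6, at -2.6, lay within the GFP-naive range. Group and covariates were thus partly confounded. The variance of the group difference, relative to that within groups, was 0.654 with the covariates and 0.367 without. Replicates 3 and 6 of α9k1-naive stood apart in red cell genes. Hba-a1 (a haemoglobin chain) was at 12.92 and 7.81 there, at 2.55 to 3.26 in the other 4 and at 8.89 to 9.45 in GFP-naive.

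The target genes were examined first. Kindlin-1 (Fermt1, ENSMUSG00000027356, chr2:132904389-132945906 in GRCm38) was at 0.77, 0.55, 0.49, 0.46 and 0.80 in the 5 GFP-naive libraries and at 5.18 to 6.0 (median 5.62) in the 6 α9k1-naive libraries. α9 integrin (Itga9, ENSMUSG00000039115, chr9:118606690-118901003) was at 2.10, 1.77, 2.40, 2.0 and 2.30 in GFP-naive and at 3.83, 2.38, 5.16, 4.40, 3.91 and 3.52 in α9k1-naive replicates 1 to 6. Replicate 2 lay within the GFP-naive range for Itga9 and replicate 3 was highest, so that the libraries overlapped for this gene and not for Fermt1. By the difference of group means, Fermt1 ranked 3 and Itga9 ranked 181 among all genes. The rise was called for both, with log2FC 4.79 (SE 0.27) for Fermt1 and 1.72 (SE 0.52, adjusted p = 0.0273) for Itga9. The values do not separate transgene RNA from the cells' own RNA of these genes.

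**Figure D1:**
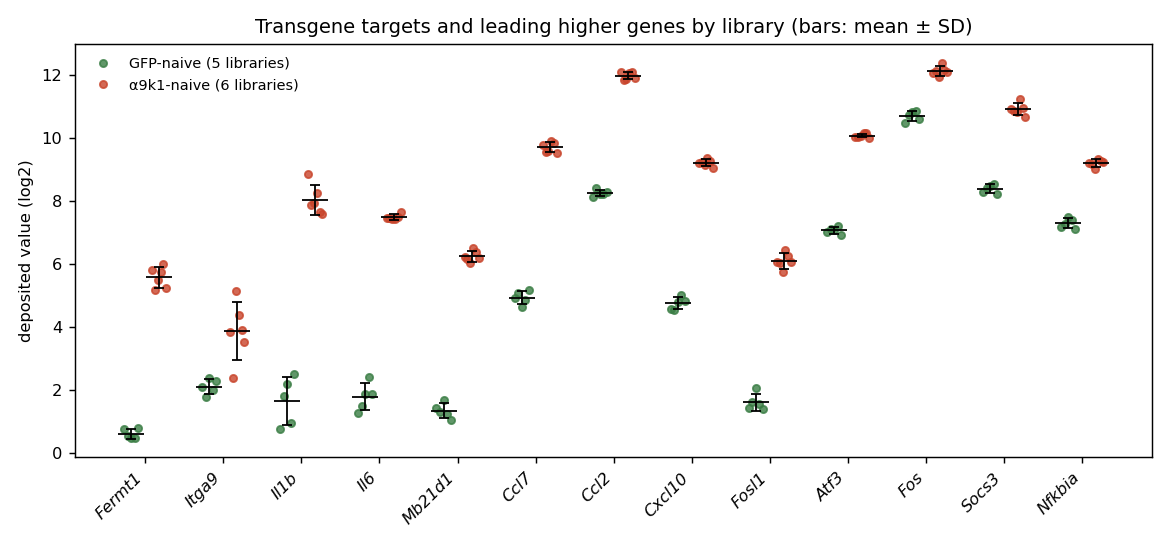
Deposited log2 values of the transgene targets and of 11 leading higher genes in each library of GFP-naive (green, 5) and α9k1-naive (red, 6), with the mean and SD of each group in black. The groups overlap for Itga9 and do not overlap for the other genes drawn; Il6 is at 7.44 to 7.67 (median 7.48) in α9k1-naive and at 1.29 to 2.43 in GFP-naive.

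Whether the libraries with more transgene RNA also had a larger response was examined over the 6 α9k1-naive libraries in 5 relations. Between Itga9 and Il6, Pearson's r was -0.305 (exact permutation p = 0.44, adjusted 0.567) and Spearman's rho was -0.543 (exact permutation p = 0.297, adjusted 0.444). The strongest relation by r was that of Fermt1 with Atf3, at r = 0.756 (exact permutation p = 0.107, adjusted 0.535) and rho = 0.543 (p = 0.297 by the same exact test, adjusted 0.444). Itga9 and Atf3 gave r = 0.289, Itga9 and Fermt1 0.451, and Fermt1 and Il6 -0.408, with exact permutation p = 0.567, 0.378 and 0.503 (adjusted 0.567 each) and rho = 0.6, 0.486 and 0.0857 (exact permutation p = 0.242, 0.356 and 0.919, adjusted 0.444, 0.444 and 0.919). Without the 2 libraries farthest from the median of the first gene, r was -0.853, 0.604, 0.747, 0.55 and -0.794 in the order given, over 4 libraries. No relation passed the test, which over 6 libraries can show only close ones.

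Across all genes, 1445 had higher values with α9k1 and 2224 lower ones at an adjusted p under 0.1 (limma), which is 11.4% and 17.6% of the 12629 tested and 29.1% in both directions. Without the covariates 2089 and 3724 genes were called, and without GFP-naive replicates 1 and 5 777 and 1129. For 57 called genes, 47 higher and 10 lower, the group means of the deposited values differed in the other direction than the fitted log2FC. The libraries of the groups did not overlap for 21.7% of genes, and 918 higher genes (7.27%) and 1342 lower genes (10.6%) were both called and free of overlap. Counts of list members given from here on stand against these shares of 11.4% higher and 17.6% lower genes, unless another fit is named. A count from another fit stands against the calls over all genes in that fit. These were 2089 higher and 3724 lower without covariates, and 777 and 1129 without GFP-naive replicates 1 and 5. Lower genes were more numerous, but the large changes were mostly increases. A log2FC beyond 1 was found for 549 higher and 480 lower genes, beyond 2 for 145 and 97, beyond 3 for 47 and 17, and beyond 4 for 13 and 2. Split by mean level into 4 equal bins, the bin of highest level held 15.4% higher genes and the other bins 9.44% to 10.8%, whereas the share of lower genes was 17.5% to 17.7% in each bin. By annotation, 11.1% of 10750 protein coding genes were higher and 18.4% lower. Of 108 lincRNAs, 28.7% were higher and 14.8% lower, and of 308 miRNA genes, whose mature products libraries of this kind do not hold, 15.6% were higher and 3.90% lower. The balance of directions moved with the scaling, since 1654 genes were higher and 1725 lower once each library was centred on its median, against a median log2FC over all genes of -0.08 without and -0.03 with that centring.

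**Figure D2:**
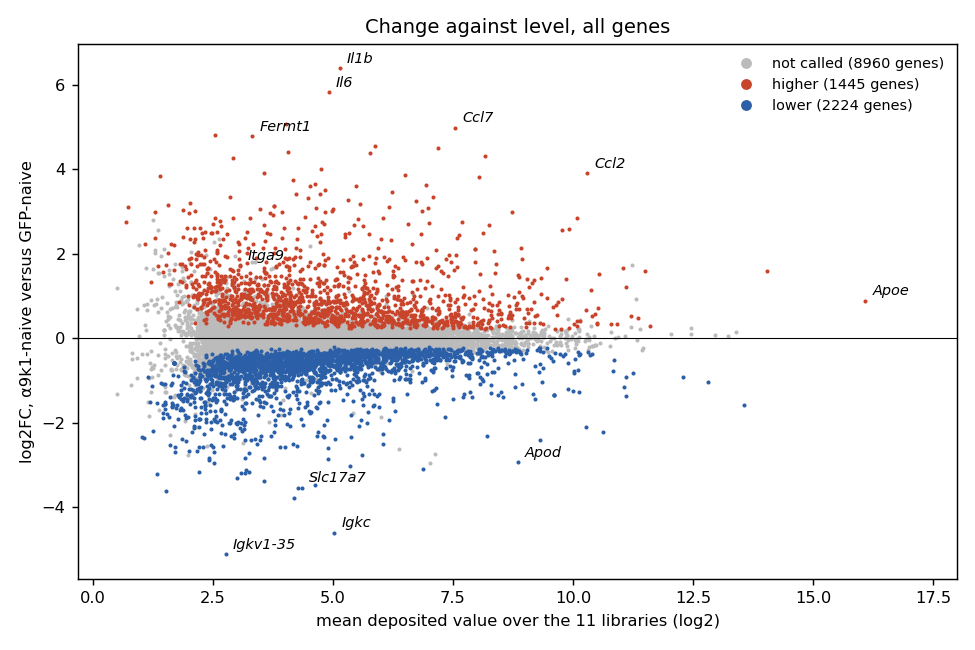
log2FC of α9k1-naive versus GFP-naive (vertical, at equal covariates) against the mean deposited value over the 11 libraries (horizontal, log2) for all 12629 genes, each a point. Red points are the 1445 higher genes, blue the 2224 lower genes and grey the 8960 that were not called; Il1b stands highest and Igkv1-35 lowest.

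The 12 called genes with the highest log2FC and no overlap of libraries were Il1b (6.39), Il6 (5.83), Mb21d1 (5.09), Ccl7 (4.99), Gm15056 (4.82), Fermt1, Ifit3 (4.54), Cxcl10 (4.51), Fosl1 (4.41), Oasl1 (4.39), Angptl4 (4.33) and Nos2 (4.26). They comprise cytokines and chemokines, the DNA sensor cGAS (Mb21d1), interferon-stimulated genes (Ifit3 and Oasl1), an AP-1 factor (Fosl1), the inducible nitric oxide synthase (Nos2) and an inhibitor of lipoprotein lipase (Angptl4). The 12 lowest were Igkv1-35 (-5.12), Igkc (-4.60), Txnip (-3.55), Slc17a7 (-3.54), Cntf (-3.46), Smim18 (-3.37), 1500015O10Rik (-3.32), Kcns1 (-3.18), Hhatl (-3.18), Pla2g7 (-3.17), Mir6986 (-3.17) and Mrgprf (-3.13). Among these are immunoglobulin light chain segments (Igkv1-35 and Igkc), an inhibitor of thioredoxin and of glucose uptake (Txnip), the vesicular glutamate transporter VGLUT1 (Slc17a7), ciliary neurotrophic factor (Cntf) and a modulatory potassium channel subunit (Kcns1). Where reads were not assigned by strand, those of Il1b, Mb21d1, Cxcl10, Fosl1, Oasl1, Txnip and Pla2g7 cannot be told apart from reads of annotated antisense genes that share exon sequence with them (Il1bos, Gm8093, Art3, Ccdc85b, Gm13822, Gm15441 and 1700071M16Rik), and Cntf shares exon sequence with Zfp91 on the same strand. Il1a, Jun, Junb, Stat3, Nefm and other genes named below share exon sequence with antisense genes in the same way. Igkv1-35, Ifit3 and Oasl1 have close paralogs between which reads may be split.

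Il1b and Il6 had the largest log2FC of all 12629 genes. Of 14 cytokine genes in the table, 7 were higher and 4 lower, with a median log2FC of 0.62. Il6 (ENSMUSG00000025746, chr5:30013114-30019981), which signals through gp130, was at 1.29, 1.49, 1.87, 2.43 and 1.89 in GFP-naive and at 7.44 to 7.67 (median 7.48) in α9k1-naive. Il1b (ENSMUSG00000027398, chr2:129364570-129371139), the inflammasome-processed interleukin 1, was at 0.76, 1.82, 2.20, 0.96 and 2.52 in GFP-naive and at 7.61 to 8.87 (median 7.92) in α9k1-naive. No library of the groups overlapped for either gene (2-sided exact permutation test, p = 0.0022 each, the smallest that 6 against 5 allow). Il1a, the other interleukin 1 agonist, rose with a log2FC of 3.01, and Il1rn, which blocks the same receptor, with 2.84. Tnfsf9 (log2FC 2.49), Csf1 (1.17), a macrophage growth factor, and Il18 (1.06) were also higher. Cntf (-3.46, 3.20 ± 0.55 against 6.36 ± 0.15), which Schwann cells make and which uses gp130 as well, fell together with Il16 (-1.90), Tnfsf12 (-0.96) and Il33 (-0.54). Il34 and Ctf1 did not pass the test, at log2FC 0.04 and 0.17. Calls ended for Il18 without α9k1-naive replicate 6 (log2FC 0.95) and Il33 without α9k1-naive replicate 6 or GFP-naive replicate 4 (log2FC -0.52 to -0.5).

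Chemokines, which attract leukocytes, had the highest median of all lists. Of 18 in the table, 15 were higher and 1 lower, with a median log2FC of 1.98, and their summed level was 12.54 to 12.82 in α9k1-naive and 9.0 to 9.22 in GFP-naive. Ccl2 (ENSMUSG00000035385, chr11:82035571-82037453), the main attractant of monocytes, was at 8.13, 8.41, 8.24, 8.25 and 8.28 in GFP-naive and at 11.85 to 12.11 (median 12.01) in α9k1-naive (log2FC 3.91, SE 0.16, adjusted p = 4.29e-10), which placed it among the genes with the highest level. Ccl7 (ENSMUSG00000035373, chr11:82045712-82047525), its neighbour on chromosome 11, was at 4.92, 5.10, 4.64, 4.85 and 5.17 and at 9.55 to 9.91 (median 9.70) (log2FC 4.99, SE 0.27, adjusted p = 1.1e-08). Cxcl1 (log2FC 3.86), which attracts neutrophils, and Ccl3 (2.47) rose as well. The interferon-induced ligands of CXCR3 were higher too, Cxcl10 (ENSMUSG00000034855, chr5:92346638-92348889) by a log2FC of 4.51, Cxcl9 by 3.25 and Cxcl11 by 2.04. Cxcl13, a B cell attractant, rose by 3.47 and Cxcl16 by 1.92, and Ccl5 by 0.87 (adjusted p = 0.0932). No call was left for Ccl5 without α9k1-naive replicate 2, 3, 5 or 6 or GFP-naive replicate 1, 4 or 5 (log2FC 0.73 to 0.99). Cxcl14 fell (-1.48), and Cx3cl1 (-0.11) and Ccl6 (-0.31) did not pass the test.

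The DNA before the start of 4 of the genes that moved together is printed here from the mouse genome (RefSeq, GRCm38.p6), since Il6, Cxcl10, Cxcl1 and the inhibitor gene Nfkbia are textbook targets of NF-κB. Each sequence is the 250 bases before the annotated start of the gene, 5′ to 3′ on the strand of the gene, and capitals mark matches, on either strand, to AP-1 (TGACTCA), CRE (TGACGTCA), the κB consensus or the CArG box.
Il6 (chr5:30012864-30013113, plus strand): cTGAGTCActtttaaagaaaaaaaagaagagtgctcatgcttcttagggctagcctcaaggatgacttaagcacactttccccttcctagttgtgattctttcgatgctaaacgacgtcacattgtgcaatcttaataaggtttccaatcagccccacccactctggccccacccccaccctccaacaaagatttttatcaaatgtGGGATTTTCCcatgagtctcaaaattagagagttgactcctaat
Cxcl10 (chr5:92348890-92349139, minus strand): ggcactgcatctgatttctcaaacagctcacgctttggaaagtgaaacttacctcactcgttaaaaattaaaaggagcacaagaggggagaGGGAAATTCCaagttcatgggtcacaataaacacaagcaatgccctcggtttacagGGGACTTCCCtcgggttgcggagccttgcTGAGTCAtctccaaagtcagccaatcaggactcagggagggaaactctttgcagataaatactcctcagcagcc
Cxcl1 (chr5:90890995-90891244, plus strand): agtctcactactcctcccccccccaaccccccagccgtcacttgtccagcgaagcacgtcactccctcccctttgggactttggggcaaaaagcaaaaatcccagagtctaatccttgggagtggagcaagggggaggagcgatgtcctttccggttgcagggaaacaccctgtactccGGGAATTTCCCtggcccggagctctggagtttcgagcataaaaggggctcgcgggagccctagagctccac
Nfkbia (chr12:55492648-55492897, minus strand): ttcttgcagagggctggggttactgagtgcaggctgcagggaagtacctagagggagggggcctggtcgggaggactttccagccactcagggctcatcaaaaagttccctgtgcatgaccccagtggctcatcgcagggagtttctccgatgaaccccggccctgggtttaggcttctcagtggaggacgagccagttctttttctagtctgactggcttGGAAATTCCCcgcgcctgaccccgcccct
The κB matches begin -44 bases from the start of Il6, at -159 and -103 in Cxcl10, at -29 in Nfkbia, and at -71 and -70 in Cxcl1, where the matches overlap. AP-1 matches begin at -249 in Il6 and -74 in Cxcl10. In windows of this length, a κB match was found in 3.9% of all 32851 promoters, in 5.57% of the 8366 genes of the expression table with a promoter, in 8.66% of 935 higher genes and in 5.55% of 1531 lower genes. For AP-1 these shares were 4.46%, 4.04%, 6.63% and 4.18%, for CRE 1.55%, 3.23%, 3.42% and 3.27%, and for CArG 1.47%, 1.51%, 2.14% and 2.09%. Of the 15 higher chemokines, 8 had a promoter in the table and 4 of these a κB match. A match is a string of letters in the mouse genome and not a measured site.

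NF-κB is a family of transcription factors that cytokine and Toll-like receptors release from their inhibitors. Of 42 genes of the pathway in the table, 22 were higher, with a median log2FC of 0.52. Inhibitors that the pathway induces as feedback were among the genes that rose. Nfkbia (ENSMUSG00000021025, chr12:55489411-55492647), which encodes IκBα, was at 7.17, 7.29, 7.51, 7.41 and 7.13 in GFP-naive and at 9.02 to 9.36 (median 9.24) in α9k1-naive (log2FC 2.06, SE 0.12, adjusted p = 1.56e-08). Tnfaip3, which encodes the deubiquitinase A20, rose by a log2FC of 3.06, Nfkbiz by 1.73, the survival gene Birc3 by 2.91 and the kinase gene Map3k8 by 3.12. Toll-like receptor 2 (Tlr2, 1.76), its co-receptor Cd14 (2.38) and the adaptor Myd88 (1.49) were higher as well. Of the 5 subunits, Relb was higher (0.89), and Rela (0.18), Nfkb1 (0.31) and Nfkb2 (0.41) did not pass the test, while Rel was not analysed here.

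Receptors and effectors of gp130 cytokines changed in part. Of 28 genes, 12 were higher and 2 lower (median log2FC 0.16), and 1 of the higher genes, the SUMO ligase Pias4 (0.67), had group means in the other order (7.15 ± 0.51 against 7.16 ± 0.25). Socs3 (ENSMUSG00000053113, chr11:117966079-117970047), the feedback inhibitor that STAT3 induces, was at 8.29, 8.43, 8.49, 8.55 and 8.23 in GFP-naive and at 10.68 to 11.26 (median 10.90) in α9k1-naive (log2FC 2.56, SE 0.16, adjusted p = 2.59e-08). Stat3 itself (log2FC 1.17), Jak2 (1.15), Socs1 (1.23) and the oncostatin M receptor Osmr (1.87) were also higher. The shared receptor subunit gp130 (Il6st) had a log2FC of -0.02 and the LIF receptor Lifr one of -0.06, neither of which passed the test. The CNTF receptor Cntfr (-1.17) and Jak1 (-0.49) were lower. The call was lost for Cntfr without α9k1-naive replicate 6 (log2FC -0.82), Jak1 without α9k1-naive replicate 6 or GFP-naive replicate 1 or 2 (log2FC -0.49 to -0.33) and Pias4 without α9k1-naive replicate 6 (log2FC 0.46).

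Interferon-stimulated genes and nucleic acid sensors were among the lists with the largest share of higher members. Of 47 in the table, 35 were higher and 2 lower, with a median log2FC of 1.09. Mb21d1 (ENSMUSG00000032344, chr9:78430526-78443237) encodes cGAS, which senses DNA in the cytosol, and was at 1.44, 1.30, 1.68, 1.24 and 1.04 in GFP-naive and at 6.03 to 6.52 (median 6.22) in α9k1-naive. Ifit3 was at 7.88 ± 0.15 against 3.47 ± 0.25 and Oasl1 at 7.81 ± 0.23 against 3.32 ± 0.46 (mean ± SD, n = 6 and 5). The members that fell were Bst2 (-1.37), which tethers virions to cells, and Irf3 (-0.5), a factor that nucleic acid sensors activate. Antigen presentation genes followed, with 24 of 35 higher and 1 lower (median log2FC 0.86). The class II gene H2-Ab1 (log2FC 1.97), the peptide transporter Tap1 (1.96) and the immunoproteasome gene Psmb8 (0.95) rose, and the class I gene H2-T24 fell (-1.39). Both groups had received AAV vectors, and the α9k1 groups had received 2 of them, so that the effect of the second vector and that of its cargo cannot be told apart. Of 12 inflammatory enzymes, 8 were higher, led by Nos2 and by the haem oxygenase Hmox1 (log2FC 3.34).

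Beside these inflammatory genes stood markers of immune cells. Of 14 macrophage markers in the table, 11 were higher (7 without GFP-naive replicates 1 and 5, median log2FC 1.13), with a summed level of 9.85 to 10.62 in α9k1-naive and 8.62 to 9.24 in GFP-naive, and 6 markers of the list were not in the table. The markers with the highest level were Lyz1 (8.65 ± 0.47 against 7.32 ± 0.32), Lyz2 (7.28 ± 0.53 against 5.97 ± 0.30) and Aif1 (6.87 ± 0.17 against 5.73 ± 0.38), the first 2 of which are paralogs. None of the 10 neutrophil markers was in the table, and of 14 T and NK cell markers 3 were, of which Cd4 was higher (0.87), Nkg7 lower (-1.80) and Lck not called (0.09), the last chosen here after its value was seen. Calls ended for Cd4 without α9k1-naive replicate 5 or 6 or GFP-naive replicate 1 or 4 (log2FC 0.74 to 1.16) and Nkg7 without α9k1-naive replicate 6 (log2FC -1.69). The part of these cells in the rise of cytokines and chemokines was not tested. In sorted cells measured in bulk, more cells of a type and more RNA per cell cannot be told apart.

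The transcription factors linked to axon regeneration were called higher at equal covariates without exception in this list. All 17 regeneration-associated factors in the table were higher, with a median log2FC of 1.44, as were all 13 genes of AP-1 and Atf3 (median 1.59), 5 of which are in both lists. These lists were chosen with earlier results of these data known, and their direction is not independent evidence. Atf3 (ENSMUSG00000026628, chr1:191170296-191218039), a stress factor used as a label of injured DRG neurons, was at 7.02, 7.11, 7.10, 7.23 and 6.94 in GFP-naive and at 10.03 to 10.17 (median 10.06) in α9k1-naive (log2FC 2.99, SE 0.17, adjusted p = 1.18e-08). All 6 α9k1-naive libraries lay above all 5 GFP-naive libraries. Jun rose by a log2FC of 1.44, Fosl1 by 4.41, Fosl2 by 3.08, Myc by 3.01, Cebpb by 2.37, Cebpd by 1.23, Klf6 by 1.25, Smad1 by 0.72 and Hif1a by 0.65. Klf4, known for holding back axon growth, and Klf7, known for aiding it, were both higher (0.76 and 0.49). The deposited values of Klf4 overlapped between groups, at 3.68 ± 0.40 against 3.42 ± 0.14 (2-sided exact permutation test, p = 0.21). Over all 11 Krüppel-like factors, 4 were higher, Klf11 (1.18) among them, and 3 lower, including Klf3 (-0.57) and Klf10 (-0.58). No call was left for Klf7 without α9k1-naive replicate 6 or GFP-naive replicate 4 (log2FC 0.35 to 0.37), Klf3 without GFP-naive replicate 4 (log2FC -0.52), Klf10 without α9k1-naive replicate 6 or GFP-naive replicate 4 (log2FC -0.44 to -0.43) and Jund without α9k1-naive replicate 6 (log2FC 0.29). Jund was called with a log2FC of 0.37 at equal covariates, but its group means were 4.77 ± 0.33 against 4.90 ± 0.15 and its direction turned without the covariates (-0.13).

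Immediate early genes, which depolarization and growth factors induce within minutes, were higher as well, 9 of 11 (median log2FC 1.21). Fos was at 10.49, 10.74, 10.85, 10.87 and 10.60 in GFP-naive and at 11.95 to 12.40 (median 12.12) in α9k1-naive (log2FC 1.59, SE 0.15, adjusted p = 3.01e-06). Arc (log2FC 3.19), Srf (1.78), Egr2 (1.71), Nr4a1 (1.52), Egr1 (1.41) and Junb (1.53) rose, and Nr4a2 (0.45) and Ier5 (0.33) did not pass the test. Fos, Egr1 and others of these genes also respond to tissue dissociation. Of 26 genes known for that response, 25 were higher and 1 lower (median log2FC 1.24), with a summed level of 15.37 to 15.80 in α9k1-naive and 13.96 to 14.13 in GFP-naive. The part of dissociation in the rise of AP-1, immediate early and NF-κB genes was not tested.

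Genes that restrain kinase signalling and the cell cycle moved in both directions. Among 23 genes of MAP kinase feedback, 6 were higher, led by the phosphatases Dusp2 (log2FC 3.91) and Dusp5 (2.47), and 7 lower, Dusp6 among them (-1.10). Of 36 genes of growth arrest and cell death, 11 were higher (11.4% of all genes) and 5 lower (17.6% of all genes). Gadd45g rose from 8.64 ± 0.12 to 11.29 ± 0.22 (log2FC 2.86, SE 0.15, adjusted p = 4.86e-09), and the cyclin-dependent kinase inhibitor Cdkn1a rose by 2.61, whereas its relatives Cdkn1b (-1.15) and Cdkn1c (-1.71) fell. In the Myc network, where 2 of 8 genes were higher and 4 lower, Mxd1 rose with Myc (1.55) and Max fell (-1.07). Txnip (ENSMUSG00000038393, chr3:96557957-96561883), a target of the related glucose-sensing factors, was at 6.15, 6.37, 6.26, 6.49 and 5.82 in GFP-naive and at 2.39 to 2.95 (median 2.67) in α9k1-naive (log2FC -3.55, SE 0.21, adjusted p = 1.56e-08). Of 14 clock genes, 5 were higher, led by Bhlhe40 (2.48) and Nfil3 (1.68), and Per3 was lower (-0.96). RGS genes, which end G protein signals, were higher for 4 of 14 with Rgs1 in front (2.35) and lower for 3, near the share over all genes, with Rgs5 (-1.91), a pericyte gene.

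Growth factors were divided. Of 18, 9 were higher, with Hbegf (log2FC 1.34) and the neurotrophin Bdnf (1.25) in front, and 6 lower, with Fgf7 (-2.58) and Fgf9 (-2.01) last, and without GFP-naive replicates 1 and 5 3 were called higher. Among 9 neurotrophin and GDNF receptors, the BDNF receptor Ntrk2 was higher (0.49) and the shared receptor Ngfr lower (-1.27), the latter being also a Schwann cell gene. The receptors Ntrk3 (0.27), Ret (0.02) and Gfra2 (-1.04) did not pass the test. In the BMP and TGF-β list, 7 of 28 were higher, with the activin subunit Inhba in front (1.47), and 6 lower, with the BMP target Id1 last (-1.76), the latter count being near the 17.6% of all genes. Of 33 Wnt and Notch genes, 6 were lower, the Notch target Hes5 most (-1.40), which is also near that share, and 0 were higher (limma; 4 at an unadjusted p under 0.05).

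Genes of large myelinated sensory neurons that were called were mostly lower. Of 23 markers of large-fibre neurons and proprioceptors, 12 were lower and 2 higher (Spp1 and Ntrk2), with a median log2FC of -1.29 and a summed level of 12.17 to 12.38 in α9k1-naive and 12.54 to 12.96 in GFP-naive. Slc17a7 (ENSMUSG00000070570, chr7:45163949-45176142) was at 6.68, 6.23, 6.02, 5.96 and 6.01 in GFP-naive and at 2.52 to 3.23 (median 2.82) in α9k1-naive (log2FC -3.54, SE 0.23, adjusted p = 4.85e-08). The neurofilament gene Nefm (ENSMUSG00000022054, chr14:68082590-68124846), whose product swells large axons, was at 10.82, 10.22, 10.58, 10.51 and 10.76 and at 8.04 to 8.55 (median 8.22) (log2FC -2.42, SE 0.21, adjusted p = 1.26e-06). Nefh (log2FC -2.32), Kcns1 (-3.18) and the sodium channel Scn1a (-1.72) fell with them, and in none of these genes did the groups overlap. Of 27 nociceptor markers, 4 were higher and 1 lower (median log2FC 0.34), the first near the 11.4% of all genes. The heat channel Trpv1 was at 6.59 ± 0.40 against 5.82 ± 0.39 (log2FC 1.16), Prph at 10.11 ± 0.21 against 9.90 ± 0.15 (0.34), and Tac1 (1.75) and Calca (0.92) were not called, while Fam19a4, a marker of C-low-threshold mechanoreceptors, was lower (-1.70). The call was lost for Trpv1 without α9k1-naive replicate 5 or GFP-naive replicate 1 or 4 (log2FC 1.07 to 1.15), Prph without α9k1-naive replicate 5 or 6 or GFP-naive replicate 2 or 4 (log2FC 0.15 to 0.33) and Fam19a4 without α9k1-naive replicate 4, 5 or 6 or GFP-naive replicate 1, 4 or 5 (log2FC -2.06 to -1.35). Over the 20 pan-neuronal markers, which include the neurofilaments, 1 was higher and 6 lower.

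**Figure D3:**
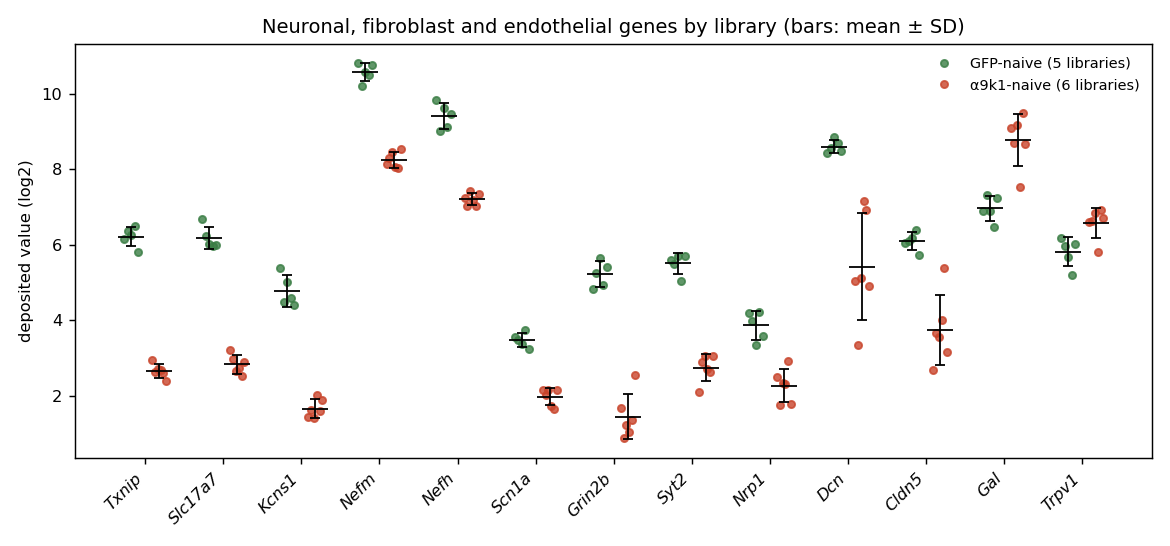
Deposited log2 values of 13 neuronal, fibroblast and endothelial genes in each library of GFP-naive (green, 5) and α9k1-naive (red, 6), with the mean and SD in black. The groups do not overlap for the 11 genes from Txnip to Cldn5, which are lower in α9k1-naive, nor for Gal, and they overlap for Trpv1.

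Neuropeptides were mostly not called, 5 of 17 being higher and 2 lower. Gal, a peptide that DRG neurons make after axotomy, was at 6.89, 7.31, 6.90, 6.49 and 7.23 in GFP-naive and at 7.54 to 9.48 (median 8.90) in α9k1-naive (log2FC 2.12, SE 0.40, adjusted p = 0.00149). Adcyap1, which encodes PACAP, rose by 1.35, adrenomedullin (Adm) by 3.0 and Nppb by 1.62. Npy, another peptide of axotomized neurons, was lower at equal covariates (-2.23, adjusted p = 0.0671) with overlapping libraries (4.29 ± 1.12 against 5.17 ± 0.91). Iapp was lower (-1.42) and Sst was not called (-1.76, adjusted p = 0.132). In the list of growth cone and regeneration effectors, 16 of 45 were higher and 6 lower (median log2FC 0.41), Stmn4 among the former (0.80) and the microtubule protein Map1b among the latter (-0.87). Without α9k1-naive replicate 6, or without GFP-naive replicates 1 and 5, 10 of them were higher, where 1172 and 777 of all genes were. Of 23 factors that set sensory neuron identity, 3 were higher and 5 lower, Pou4f2 most (-1.34), which is near the shares over all genes (11.4% higher, 17.6% lower). Calls ended for Npy without α9k1-naive replicate 6 or GFP-naive replicate 1 or 2 (log2FC -2.45 to -1.97), Iapp without α9k1-naive replicate 4 or 6 or GFP-naive replicate 1, 2 or 4 (log2FC -1.44 to -0.44), Stmn4 without α9k1-naive replicate 6 (log2FC 0.67), Map1b without α9k1-naive replicate 6 or GFP-naive replicate 1 (log2FC -0.81 to -0.80) and Pou4f2 without α9k1-naive replicate 1, 4 or 5 or GFP-naive replicate 1, 2, 4 or 5 (log2FC -1.34 to -1.18).

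Channels, receptors and release genes were called mostly in the lower direction, as were all genes (17.6% lower, 11.4% higher). Of 21 GABA and glutamate receptor genes, 9 were lower (5 without GFP-naive replicates 1 and 5) and 1 higher, and the NMDA receptor subunit Grin2b fell (log2FC -2.84, SE 0.26, adjusted p = 1.94e-06). Of 45 potassium and HCN channels, 12 were lower and 5 higher, with Kcns1 and the pericyte channel Kcnj8 (-2.57) last. Sodium channels were lower for 4 of 9, among them Scn7a (-2.07), which Schwann cells also express, and higher for the accessory subunit Scn3b (0.66). No call was left for Scn3b without α9k1-naive replicate 1, 2, 3, 4 or 6 or GFP-naive replicate 1, 3 or 5 (log2FC 0.53 to 0.78). Calcium channels were lower for 5 of 11, Cacng2 most (-1.51), and higher for 1, Cacna2d1 (1.22), which encodes the α2δ1 subunit bound by gabapentin. The summed level of that list went the other way than its count of calls, at 8.36 to 8.78 in α9k1-naive and 8.12 to 8.33 in GFP-naive. Among 25 transduction channels, 5 were lower, P2rx7 most (-1.45), and 2 higher, which is near those shares. Of 54 release genes, 14 were lower, with the calcium sensor Syt2 (-2.57) and Vamp1 (-1.47) last, and 7 higher. The lower ones numbered 9 with the replicate number as a block and 9 without α9k1-naive replicates 4 and 6. Axon guidance genes were lower for 13 of 37, the semaphorin receptors Nrp1 (-2.03) and Nrp2 (-2.01) most, and higher for 2. With the replicate number as a block 7 were lower, and without α9k1-naive replicates 4 and 6 8 were. The neuropeptide Y receptor Npy1r rose (1.92).

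Other integrin subunits moved in both directions. Of the 12 integrin subunits, 3 were higher and 5 lower. Beside Itga9, these were Itga5 (log2FC 1.01), the fibronectin receptor subunit, and Itgal (0.93), a leukocyte subunit, while Itgb4 (-0.99), Itgb8 (-0.90), Itga6 (-0.81), Itga7 (-0.76) and Itgb5 (-0.55) fell. Itgb1, the partner of α9, was at 7.25, 7.54, 7.26, 7.40 and 7.26 in GFP-naive and at 7.46 to 7.94 (median 7.86) in α9k1-naive (log2FC 0.25, SE 0.11, adjusted p = 0.117) and was not called, nor were Itgav (0.37), Itga3 (-0.29) and Itgb3 (-0.32). Itga6 and Itgb4 form a laminin receptor of Schwann cells. Of 45 kindlins, talins and focal adhesion genes, 5 were higher, Nedd9 after Fermt1 (0.96), and 10 lower, Cav1 most (-1.77), which is close to the shares over all genes, and the lower ones numbered 6 without α9k1-naive replicate 6. The call was lost for Itgal without α9k1-naive replicate 5 or 6 or GFP-naive replicate 1 (log2FC 0.87 to 0.96), Itga6 without α9k1-naive replicate 6 (log2FC -0.56), Itgb5 without α9k1-naive replicate 6 or GFP-naive replicate 4 (log2FC -0.51 to -0.49) and Cav1 without α9k1-naive replicate 6 (log2FC -1.0).

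Among the known ligands of α9 integrin, some rose. Tnc (tenascin-C) was at 6.33 ± 0.14 against 5.10 ± 0.30 (log2FC 1.0, adjusted p = 0.00729), Spp1 (osteopontin) at 11.64 ± 0.15 against 10.45 ± 0.12 (1.22) and Vcam1 at 4.05 ± 0.27 against 2.68 ± 0.27 (1.27), and none of them overlapped between groups, although all 3 share exon sequence with other annotated genes. Thbs1 rose most in the list (2.68) and Fn1 was not called (0.09). Over 41 ligands and matrix genes, however, 15 were lower and 7 higher, the lower ones being led by Thbs2 (-2.55), Vtn (-2.40) and collagens such as Col3a1 (-2.01) and Col1a1 (-1.36), which fibroblasts make. The summed level of these 41 genes went the other way than the count of calls, at 11.90 to 12.21 in α9k1-naive and 11.31 to 11.57 in GFP-naive. Extracellular proteases and their inhibitors were higher for 15 of 35 and lower for 7, and 9 were higher without α9k1-naive replicate 6. Adamts1 (log2FC 3.09, SE 0.26, adjusted p = 7.18e-07) and the plasminogen activator Plau (log2FC 2.86) rose most, and the catalytically inactive Adam23 (-1.66) and Adam22 (-1.19) fell most.

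Markers of other ganglion cells differed between the groups, and in opposite directions. Of 17 Schwann cell markers, 13 were lower and 2 higher (median log2FC -1.27), with a summed level of 12.52 to 12.88 in α9k1-naive and 13.59 to 13.91 in GFP-naive. Pmp22, a myelin protein of peripheral nerve, was at 11.54, 11.83, 11.64, 11.85 and 11.48 in GFP-naive and at 10.49 to 10.80 (median 10.64) in α9k1-naive (log2FC -0.91, SE 0.19, adjusted p = 0.00282). S100b (-0.18), which satellite glia share, was not called. Satellite glia markers were higher for 5 of 13 and lower for 1, and their summed level, which is nearly all Apoe (log2FC 0.89), was 16.31 to 16.81 in α9k1-naive and 15.61 to 15.99 in GFP-naive. Fibroblast markers were lower for 7 of 8 (median log2FC -2.28, summed level 7.65 to 9.64 in α9k1-naive and 10.96 to 11.39 in GFP-naive), with Dcn at 8.42 to 8.84 in GFP-naive and at 3.35 to 7.17 (median 5.08) in α9k1-naive and Apod at a log2FC of -2.93. Endothelial and pericyte markers were lower for 8 of 9 (summed level 5.36 to 6.5 in α9k1-naive and 7.18 to 7.70 in GFP-naive), with Cldn5 at a log2FC of -2.04, but for 3 without α9k1-naive replicate 6 and for 4 without GFP-naive replicates 1 and 5. Calls ended for Cldn5 without α9k1-naive replicate 6 (log2FC -0.95). B and plasma cell markers were lower for 6 of 9, led by Igkv1-35 and Igkc, with a summed level of 7.19 to 8.12 in α9k1-naive and 8.49 to 10.01 in GFP-naive, and one of the 9, Ighmbp2, is no immunoglobulin gene. Red cell genes had a summed level of 10.18 to 10.80 in GFP-naive, 14.40 in α9k1-naive replicate 3, 9.10 in replicate 6 and 4.24 to 4.52 in the other 4, and Hba-a1 (-2.75) and Hbb-bs (-2.96) did not pass the test. The part of these cells in the fall of collagens, Cntf, Scn7a, Ngfr, Kcnj8 and Rgs5 was not tested.

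**Figure D4:**
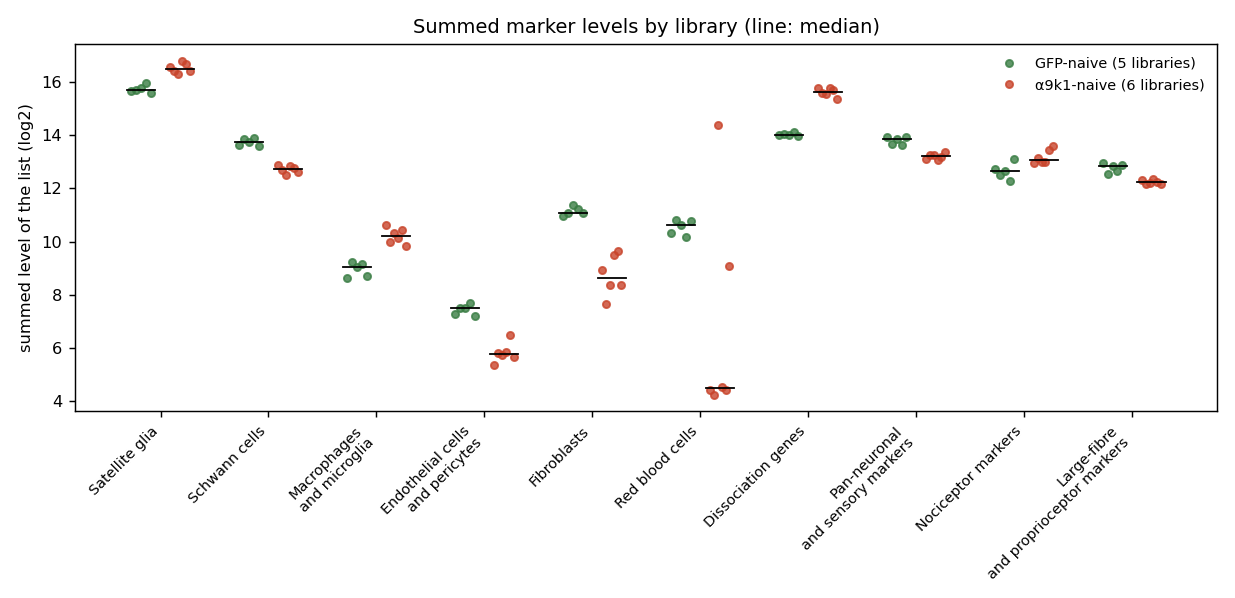
Summed level of each marker list (log2 of the sum of the members' linear values) in each library of GFP-naive (green, 5) and α9k1-naive (red, 6), with the group median as a line. Satellite glia, macrophage and dissociation lists are higher and Schwann, endothelial, fibroblast, pan-neuronal and large-fibre lists lower in every α9k1-naive library than in any GFP-naive library, and red cell genes in α9k1-naive reach from 4.24 to 14.40.

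Mitochondrial and ribosomal genes that were called were mostly lower, by small amounts at equal covariates, and their counts depended on the covariates, the libraries and the scaling. Of 84 nuclear genes of oxidative phosphorylation, 30 were lower and 1 (Uqcr11) higher, with a median log2FC of -0.20, and Ndufa4l2 was lowest (-2.23). Uqcr11 (0.23) changed sign without the covariates (-0.05). No call was left for Uqcr11 without α9k1-naive replicate 6 or GFP-naive replicate 1 or 2 (log2FC 0.21 to 0.23), Lamp5 without α9k1-naive replicate 5 or 6 or GFP-naive replicate 1 or 4 (log2FC 1.20 to 1.56) and Mrpl33 without α9k1-naive replicate 2, 3, 5 or 6 or GFP-naive replicate 1, 2, 3 or 5 (log2FC 0.19 to 0.29). Mitochondrial ribosomal proteins were lower for 25 of 80 and cytosolic ones for 16 of 77, with 1 and 1 higher. At equal covariates the share of lower cytosolic ones was near the 17.6% of all genes. The higher mitochondrial one, Mrpl33 (log2FC 0.29), had group means in the other order, at 7.72 ± 0.26 against 7.79 ± 0.19. Of the latter, Rps28 fell (-1.06) and Rpl7 rose (0.73), and both have processed pseudogenes that may share their reads. The medians of these lists lay between -0.18 and -0.22, against -0.08 for all genes. Without covariates, 65, 64 and 64 genes of the oxidative phosphorylation, mitochondrial and cytosolic ribosomal lists were lower, where 3724 of 12629 genes were. With median centring 17, 15 and 10 were. The summed level of cytosolic ribosomal genes was 11.70 to 11.94 in α9k1-naive replicates 1 to 5, 12.26 in replicate 6 and 12.23 to 12.51 in GFP-naive. For oxidative phosphorylation these values were 14.54 to 14.62, 14.91 and 14.91 to 15.06. Without α9k1-naive replicate 6, 16 mitochondrial and 9 cytosolic ribosomal genes were lower, and without GFP-naive replicate 4, 15 and 10. Without GFP-naive replicate 1, 16 mitochondrial ribosomal genes were lower, and without GFP-naive replicates 1 and 5 5, 4 and 8 genes of the 3 lists were. Splicing factors were lower for 16 of 61 and higher for 4, with 9 lower without α9k1-naive replicate 6. Autophagy genes were lower for 10 of 41 and higher for 2, with 6 lower without α9k1-naive replicate 6, GFP-naive replicate 1 or GFP-naive replicate 2 and 4 with median centring, and lysosomal genes were higher for 5 of 46, Lamp5 most (1.59), and lower for 2, the first count being at the 11.4% of all genes.

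Cholesterol genes went the other way. Of 32 genes of cholesterol synthesis and uptake, 19 were higher and 2 lower (median log2FC 0.35), with 10 higher without GFP-naive replicates 1 and 5. The sterol carrier Stard4 (1.88) and the isoprenoid enzyme Idi1 (log2FC 1.66, SE 0.13, adjusted p = 2.71e-07) rose most, while Srebf2 (-0.49), the factor that drives these genes, and Npc1 (-0.72) were the lower members. The call was lost for Npc1 without α9k1-naive replicate 6 (log2FC -0.78). In glycolysis, Pfkfb3, a kinase that sets the flux, rose by a log2FC of 2.72 and the glucose transporter Slc2a1 by 0.92, with 4 of 22 genes higher and 3 lower. Of the stress genes, 7 of 26 in the Nrf2 list were higher (Nfe2l2 1.01) and 2 lower, and 10 of 39 in the ATF4 list were higher (Ppp1r15a 1.75, Atf4 itself 1.37) and 7 lower. In the ATF4 list 6 were higher without GFP-naive replicates 1 and 5, and 16 with only the compared groups and no covariates. Heat shock genes had 9 higher and 11 lower of 81, with Dnajb1 (1.96) and Hspa5 (0.96) highest and Hspa2 lowest (-1.57), and that count is at or below the shares over all genes (11.4% higher, 17.6% lower). Without covariates 16 and 27 were called, above the shares of that fit (2089 and 3724 of 12629 genes). Ubiquitin enzymes had 23 higher, Rnf122 in front (2.49), and 30 lower, Fbxo2 last (-1.35), of 178, which is close to the same shares, and 16 were lower without GFP-naive replicate 4 and 18 with median centring. Among chromatin modifiers, 8 of 87 were higher, Arid5a most (2.45), and 13 lower (8 without GFP-naive replicate 2 or 4), both slightly below the shares over all genes. With the trend by GC content and gene length removed, 5 chromatin modifiers were lower, and without covariates 16 were higher and 20 lower. Among 60 actin and myosin genes 10 were higher, with Rnd1 in front (1.41), and 15 lower, with Capg last (-2.33). The higher ones numbered 6 without GFP-naive replicates 1 and 5 and 16 with only the compared groups and no covariates. The lower ones numbered 23 without covariates. The other lists held 5 higher and 16 lower of 66 tubulins and microtubule proteins (4 lower without GFP-naive replicates 1 and 5), 7 and 5 of 50 proteasome genes, 3 and 6 of 32 MAP kinases, 2 and 4 of 21 cadherins, 6 and 2 of 19 Atf, Creb and C/EBP factors, and 1 and 1 of 8 inhibitory receptors, to be read against the same shares.

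**Figure D5:**
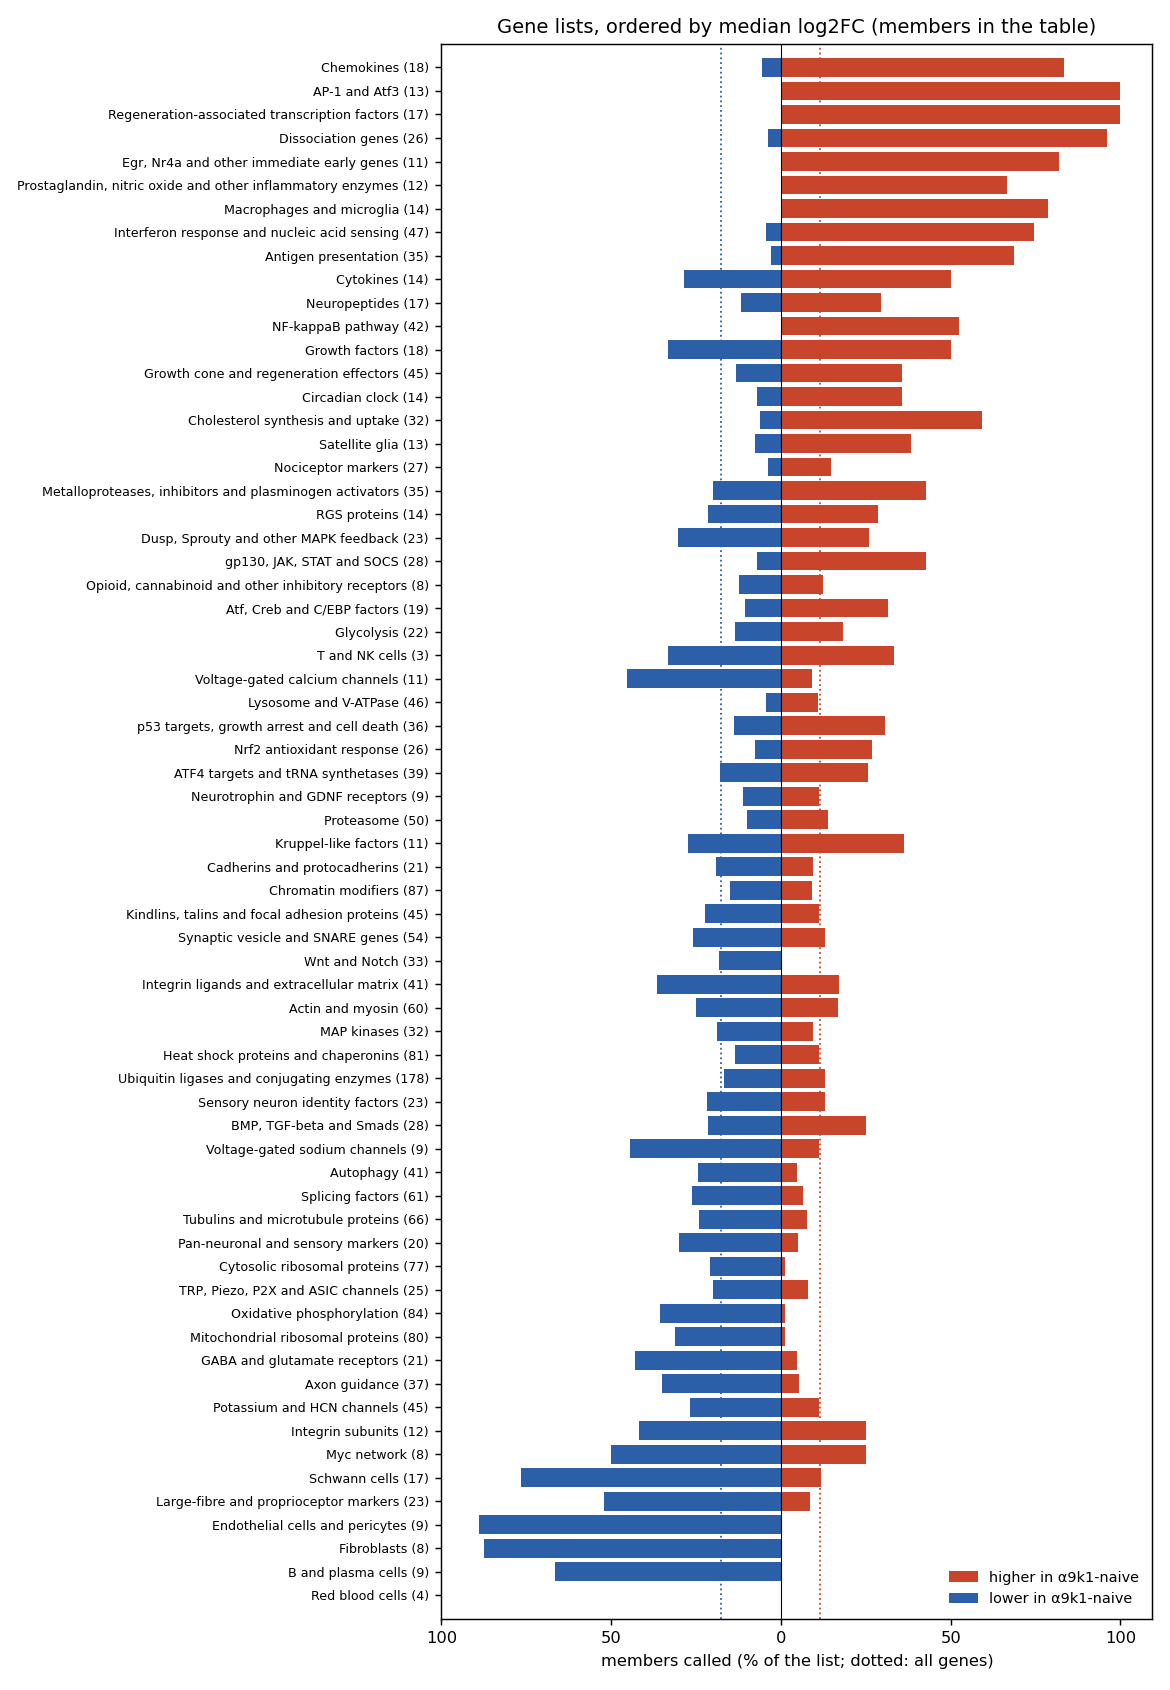
Share of each list's members called higher (red, to the right) and lower (blue, to the left) in α9k1-naive, in % of the members in the table (number in brackets), with lists ordered by median log2FC; dotted lines give the shares over all genes, 11.4% higher and 17.6% lower. Chemokines, with 15 of 18 higher, are at the top, and red cell, B cell, fibroblast, endothelial, large-fibre and Schwann lists are at the bottom.

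The effect of α9k1 without crush was compared with its effect after dorsal root crush by the interaction in the same fit, which was called for 2.2% of all genes, 107 of them positive (0.847%) and 171 negative (1.35%). Which direction had more calls turned with the scaling, since median centring gave 167 positive and 118 negative genes, quantile normalization 134 and 128, and removal of the trend by GC content and gene length 124 and 102. Without the covariates 2027 and 2943 were called. Without GFP-naive replicate 3 the counts were 48 and 70, and without its replicate 4 they were 59 and 99. Leaving out replicate 1, 2 or 4 of α9k1-naive gave 59, 81 and 58 positive and 135, 104 and 103 negative genes, in that order. A positive difference means that α9k1 raised the gene more, or lowered it less, without crush. Of the target genes, Itga9 had a log2FC of 1.72 without and 5.51 after crush (difference -3.79, SE 1.07, adjusted p = 0.117) and Fermt1 one of 4.79 and 6.21 (difference -1.43, SE 0.56, adjusted p = 0.261), and neither difference was called. The part of transgene level in the differences was not tested. Of the 217 genes named here, 46 were called, 17 positive and 29 negative, and 23 of them were called in all 11 fits that left out 1 naive library. With the replicate number as a block 10 of them were called, and Gal, Cxcl9, Oasl1 and Col1a1 were not. Many of the 217 genes were named for their log2FC without crush, which is also part of this difference. The number and the directions of their calls are therefore not independent of how they were named. Gal had a log2FC of 2.12 without and -1.76 after crush, a difference of 3.88 (adjusted p = 0.0379). The interferon-induced genes Cxcl9 and Oasl1 differed in the same direction, by 4.02 (adjusted p = 0.00674) and 3.07, as did Hmox1 (2.57). In the interferon list the difference was called positive for 8 of 47 genes, and it was not called for Cxcl10 (1.25, adjusted p = 0.199) and Ifit3 (1.03, adjusted p = 0.342). The large-fibre genes Slc17a7 (-3.20), Kcns1 (-4.15) and Scn1a (-2.38) and Txnip (-2.97) differed in the negative direction. The collagen genes Col3a1 (-3.57) and Col1a1 (-1.99) differed too. No difference was called for Il6 (0.12, SE 0.41), Il1b (2.39, SE 1.02), Atf3 (0.84, SE 0.34) or Socs3 (-0.23, SE 0.32), which does not show that their effects were equal.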

How the data were processed

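RNA from FACS-sorted cells had been amplified with SMART-Seq v4 and sequenced in pairs, and the reads had been aligned by the authors with STAR to mm10 (GRCm38), quantified with Salmon and described with Picard metrics, all named in the submitters' processing notes or the study's methods. The deposited log2 values are gene counts with a small pseudocount, which the authors had normalized with the cqn package for depth and gene length, and genes with low counts had been removed. The deposited library metrics are counts of reads and bases, fractions, percent dropouts by GC content and ratios of coverage, all by Picard per the file headers. Columns of the authors' own comparisons (fold changes and p-values) were not used. Whether reads were counted by strand is not given in the sources used here. Rows of the value table carry no gene names and were named by the order of the deposited gene table.

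All 19 libraries were fitted in limma 3.58.1 (R 4.3.3) with a mean for each of 4 groups and the first 3 principal components of 48 scaled metrics (45.9%, 24.1% and 11.5% of their variance), leaving 12 residual degrees of freedom. Contrasts were tested with Benjamini-Hochberg adjustment over 12629 genes and called at an adjusted p under 0.1. The study's model also holds a batch, which the sample table used here does not name, so batch and group could not be separated. log2FC denotes the fitted difference of α9k1-naive and GFP-naive, and means ± SD are of the deposited values. Single genes were also tested by a 2-sided exact permutation test over the 11 libraries.

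Genes were named by rule: the targets, the 12 highest and 12 lowest called genes without overlap, the 2 highest and 2 lowest called members of each list, members of the lists on transcription factors, cytokines and their signalling, integrins and neuropeptides, and cell type markers of highest level. Some genes that the rule names are not reported here. The 67 lists and the comparison were chosen with earlier results of these data known, and lists were described by counts and medians without a test. The summed level of a list is the log2 of the sum of its members' linear values. Alternatives covered covariates, samples, scaling, a filter on low values, weights, moderation, a replicate block and libraries left out.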

Additional observations from a re-analysis of the deposited data

Results flagged for a closer look

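In 30 of the 434 groups of values tested (217 genes in each of the naive groups), 1 library lay farther from its nearest neighbour than Dixon's test allows at 95%, and chance gives about 1 in 20. The values below are log2 values of the library and of the others of its group. In α9k1-naive these were Il6 in replicate 6 (7.67 against 7.44 to 7.5), Angptl4 in replicate 1 (10.63 against 9.97 to 10.19), Igkv1-35 in replicate 6 (1.16 against 0.13 to 0.43), Ccl3 in replicate 3 (3.56 against 4.70 to 5.27), Psmb8 in replicate 5 (6.18 against 5.90 to 5.99), Nr4a2 in replicate 6 (3.62 against 4.37 to 4.74), Myc in replicate 4 (8.56 against 8.01 to 8.20), Trpv1 in replicate 4 (5.82 against 6.61 to 6.93), Itgal in replicate 4 (1.67 against 3.24 to 3.89), Itgb1 in replicate 6 (7.46 against 7.78 to 7.94), Itgb4 in replicate 5 (5.28 against 5.89 to 6.06), Vcam1 in replicate 4 (4.57 against 3.79 to 4.08), Vtn in replicate 1 (1.02 against 1.82 to 2.23), Adamts1 in replicate 6 (7.96 against 8.32 to 8.53), Uqcr11 in replicate 6 (10.24 against 9.70 to 9.89) and Pias4 in replicate 6 (8.15 against 6.79 to 7.17). In GFP-naive these were Gm15056 in replicate 5 (1.06 against -0.01 to 0.07), 1500015O10Rik in replicate 3 (5.24 against 4.46 to 4.68), Cx3cl1 in replicate 4 (3.32 against 3.74 to 3.83), H2-Ab1 in replicate 5 (5.69 against 6.30 to 6.54), Osmr in replicate 1 (1.78 against 2.11 to 2.19), Srf in replicate 5 (2.0 against 2.34 to 2.37), Rgs1 in replicate 1 (4.26 against 4.65 to 4.81), Cdkn1b in replicate 1 (3.52 against 4.07 to 4.25), Kcnj8 in replicate 1 (2.78 against 3.30 to 3.48), Scn3b in replicate 3 (4.62 against 5.03 to 5.17), Itga7 in replicate 4 (7.04 against 6.71 to 6.78), Adamts1 in replicate 2 (5.55 against 5.19 to 5.21), Stard4 in replicate 5 (3.82 against 4.40 to 4.53) and Srebf2 in replicate 1 (6.16 against 5.94 to 5.98). Replicate 6 of α9k1-naive, which also stood apart in the covariates and in haemoglobin, was the library concerned for Il6, Igkv1-35, Nr4a2, Itgb1, Adamts1, Uqcr11 and Pias4.

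The effect of α9k1 without crush differed from that after crush for 46 of the 217 named genes (limma, interaction at an adjusted p under 0.1), 23 of which were called in all 11 fits without 1 naive library. Many of the 217 genes were named for their log2FC without crush, so that these calls are not independent of how the genes were named. The values are the difference of the log2FC and each log2FC. Among inflammatory and related genes these were Mb21d1 (1.78, from 5.09 without and 3.30 after crush), Ccl7 (2.14, from 4.99 without and 2.85 after crush), Oasl1 (3.07, from 4.39 without and 1.32 after crush), Cxcl13 (2.90, from 3.47 without and 0.56 after crush), Cxcl9 (4.02, from 3.25 without and -0.76 after crush), Cxcl11 (3.51, from 2.04 without and -1.47 after crush), Cxcl16 (1.67, from 1.92 without and 0.26 after crush), Ccl5 (3.42, from 0.87 without and -2.55 after crush), Tap1 (1.26, from 1.96 without and 0.70 after crush), Psmb8 (1.34, from 0.95 without and -0.39 after crush), Birc3 (1.52, from 2.91 without and 1.38 after crush) and Hmox1 (2.57, from 3.34 without and 0.77 after crush). Among peptides, growth cone and other genes with a positive difference these were Gal (3.88, from 2.12 without and -1.76 after crush), Adcyap1 (2.38, from 1.35 without and -1.03 after crush), Stmn4 (1.95, from 0.80 without and -1.14 after crush), Srf (1.53, from 1.78 without and 0.24 after crush) and Pfkfb3 (1.32, from 2.72 without and 1.39 after crush). Among large-fibre and neuronal transmission genes these were Slc17a7 (-3.20, from -3.54 without and -0.34 after crush), Kcns1 (-4.15, from -3.18 without and 0.97 after crush), Nefm (-1.74, from -2.42 without and -0.67 after crush), Nefh (-2.0, from -2.32 without and -0.32 after crush), Scn1a (-2.38, from -1.72 without and 0.66 after crush), Grin2b (-2.53, from -2.84 without and -0.32 after crush) and Syt2 (-2.82, from -2.57 without and 0.25 after crush). Among genes of Schwann cells, fibroblasts and vessels these were Scn7a (-1.69, from -2.07 without and -0.38 after crush), Ngfr (-1.55, from -1.27 without and 0.28 after crush), Itga6 (-1.63, from -0.81 without and 0.82 after crush), Dcn (-4.87, from -3.10 without and 1.77 after crush), Col1a1 (-1.99, from -1.36 without and 0.63 after crush), Col3a1 (-3.57, from -2.01 without and 1.56 after crush), Thbs2 (-4.27, from -2.55 without and 1.72 after crush), Vtn (-3.67, from -2.40 without and 1.27 after crush), Fgf7 (-2.79, from -2.58 without and 0.22 after crush), Kcnj8 (-4.07, from -2.57 without and 1.5 after crush) and Rgs5 (-2.76, from -1.91 without and 0.85 after crush). The remainder were Txnip (-2.97, from -3.55 without and -0.58 after crush), Smim18 (-2.74, from -3.37 without and -0.63 after crush), Hhatl (-2.99, from -3.18 without and -0.19 after crush), Mrgprf (-2.68, from -3.13 without and -0.44 after crush), H2-T24 (-1.72, from -1.39 without and 0.33 after crush), Cdkn1c (-2.04, from -1.71 without and 0.33 after crush), Nrp1 (-2.84, from -2.03 without and 0.81 after crush), Itga7 (-1.11, from -0.76 without and 0.35 after crush), Itgb8 (-1.46, from -0.90 without and 0.56 after crush), Hspa2 (-1.78, from -1.57 without and 0.21 after crush) and Capg (-2.47, from -2.33 without and 0.14 after crush). In the 11 fits without 1 library, Ngfr was called in 0 (limma), Cxcl16 in 1, Adcyap1 in 2, Ccl7, Nefh and Nrp1 in 3, Birc3, Cdkn1c and Nefm in 4, Tap1, Scn7a and Itga7 in 5 and Itga6 in 6, and the others in 7 or more. The summed level of fibroblast markers in naive libraries is given above, and its part in these differences was not tested.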

How the results depend on the processing

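The number of higher genes stayed within 1.5 times of 1445 in all but 1 of 24 alternatives, and the number of lower genes did so in all but 5. Without GFP-naive replicates 1 and 5, 777 genes were higher and 1129 lower. Lower genes numbered 3724 without covariates, 3723 with only the compared groups and no covariates, 1314 with the replicate number as a block, and 1463 without α9k1-naive replicates 4 and 6. Leaving out 2 libraries at a time, α9k1-naive 4 and 6 or 3 and 6 or GFP-naive 1 and 5, was chosen after seeing the data. Positive differences from the effect after crush numbered 2027 without covariates, 167 with median centring (118 negative), 196 with array weights, 7 with the block and 62 without replicates 4 and 6. Negative ones numbered 2943 without covariates, 102 with the trend by GC content and gene length removed, 354 with array weights, 19 with the block, 109 without replicates 3 and 6 and 113 without replicates 4 and 6. With 1 library left out, there were 1172 to 1404 higher genes, 1580 to 2169 lower genes, 48 to 95 positive differences and 70 to 172 negative ones, the lowest of the last 2 without GFP-naive replicate 3 and the lowest of the first 2 without α9k1-naive replicate 6. Jund (-0.13), Uqcr11 (-0.0465), Mrpl33 (-0.0639) and Pias4 (-0.0056) changed sign in both fits without covariates. Why the counts moved was not tested, although the fits without libraries or with a block also have fewer residual degrees of freedom.

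Of the 192 named genes that were called, 162 were called in every fit without 1 library and 141 in every alternative. Libraries of the same number in both groups did not deviate together (r = -0.0026, 0.0618, -0.106, 0.0297 and -0.00245 for numbers 1 to 5), and 1 of the 5 numbers matched its own best, so that the numbers did not pair the libraries. With the block, 1132 genes were higher, 33 of the named calls were lost, and 10 of the 46 named differences from the effect after crush were called. Counting depth is unknown for single values, and genes at the low end of the log2 scale have fold changes that the authors' pseudocount compresses.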
